A study of Rattus norvegicus with 372 samples.

Results

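The genes described here encode the subunits of the proteasome. They were taken as every probe of the whole transcriptome (WT) assay whose gene symbol begins with PSMA, PSMB, PSMC or PSMD followed by a number, without Psmb8 and Psmb9, which gave 31 of 22253 probes. No measured value entered that rule. Of the 31 probes, 29 passed the minimum of 10 reads on average over all WT wells and were tested, among 10689 probes in all. Psma8, a testis-specific core subunit, had no read in any of the 186 wells. Psmb11, a thymus-specific core subunit, had 0.946 reads on average and was at 0 in 98 wells. The 29 tested probes held 9 subunits of the core particle (Psma4 to Psma7, Psmb1, Psmb2, Psmb3, Psmb5 and Psmb7) and 14 of the regulatory particle. The other 6 were Psma3l, which the RefSeq rat annotation lists as a synonym of the core subunit gene Psma3, the inducible core subunit Psmb10, the assembly factors Psmd5, Psmd9 and Psmd10, and Psmc3ip. Psmc3ip matched by name alone, since it encodes a partner of a recombinase and no part of the proteasome. Psma1, Psma2, Psmb4, Psmb6, Psmc5, Psmd8 and Psmd14 were not analysed here.

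The proteasome degrades proteins that carry chains of ubiquitin. Its core particle is a barrel of stacked rings, in which the beta subunits Psmb5, Psmb6 and Psmb7 cut peptide bonds and the alpha subunits form the gate. The regulatory particle caps the barrel, with a base whose ATPases (Psmc genes) unfold the substrate and whose other subunits bind ubiquitin, and a lid that removes ubiquitin. Cells exposed to interferon, and immune cells, replace the cutting subunits by Psmb8, Psmb9 and Psmb10 in a form called the immunoproteasome. The transcription factor Nfe2l1 is known to raise many proteasome genes together when proteasome activity is short.

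The series measured rat hepatocytes, the main cells of the liver, by TempO-Seq, in which pairs of short detector probes anneal to an RNA, are ligated and are counted by sequencing. Hepatocytes of 1 male Wistar rat per batch were kept between layers of collagen and exposed for 24 h to 14 chemicals, each at 2 concentrations, with 3 wells per concentration in each of 2 batches. The vehicle was 0.5% DMSO, with 3 wells in batch 1 and 6 in batch 2, and as many wells held medium with no chemical. Each of the 186 wells was read by the WT assay and by a smaller assay of 2654 probes chosen to stand in for the whole transcriptome (ST), which gave 372 libraries. The lower and higher concentrations were 400 and 10000 µM of acetaminophen, caffeine, isoniazid and valproic acid (labelled Valproic), 18 and 450 µM of chloramphenicol, 16 and 400 µM of diclofenac, 0.08 and 2 µM of doxorubicin, 12 and 300 µM of indomethacin, 0.6 and 15 µM of ketoconazole, 80 and 2000 µM of naproxen, 160 and 4000 µM of ranitidine, 2.4 and 60 µM of simvastatin, 4 and 100 µM of sulfasalazine, and 8 and 200 µM of WY14643, an agonist of the peroxisome proliferator receptor PPARα. The 3 wells of a treatment were technical replicates, so a batch was 1 animal and only the agreement of the batches was a biological repeat. All vehicle wells of batch 1 lay on plate 4, while acetaminophen, chloramphenicol, indomethacin, ketoconazole, sulfasalazine and WY14643 lay on plate 5, so plate and treatment cannot be told apart for these 6 chemicals in that batch. The WT wells held 2709504 to 8948654 reads in batch 1 and 2289425 to 8975207 in batch 2.

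A fold change here is the log2 fold change (L2FC) of a treatment against the vehicle wells of the same batch, from the quasi-likelihood test of edgeR on the counts. A member is called higher or lower where its Benjamini-Hochberg adjusted p over the 10689 probes was under 0.05 in batch 1 and in batch 2, with the same sign. CPM are the reads of a probe set against the total of the well and scaled to 1e6. Probes of different genes can capture RNA with different efficiency, so CPM were compared between wells for 1 gene and never between genes.

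The sequences upstream of the genes were available from RefSeq (assembly GRCr8) for 26 of the 31 members, and the 250 bases before the annotated start were searched on both strands. The antioxidant response element, searched as TGACNNNGC, occurred in 4 of the 26 (Psmb2, Psmb5, Psmd1 and Psmd9) and in 10.1% of all 33469 rat promoters of that length. The CCAAT box, searched as CCAAT, occurred in 14 of the 26 and in 34.0% of all promoters. The interferon response motif, searched as GAAANNGAA, occurred in 6 of the 26 and in 8.12% of all promoters. Psmb10 held 3 of those matches, of which the ones at positions -73 and -67 before the start overlap and another lies at -17. The promoters of Psmb10, Psmd9 and Psmd1 are shown because Psmb10 moved against the other members, Psmd9 was the 1 member with 2 antioxidant matches, and Psmd1 is a scaffold of the base of the regulatory particle with an antioxidant match. Capitals mark matches to GAAANNGAA in Psmb10 and to TGACNNNGC, on either strand, in the other two. Psmb10 lies at chr19:50743293-50743542 on the minus strand, Psmd9 at chr12:39018265-39018514 on the minus strand and Psmd1 at chr9:94157721-94157970 on the plus strand.
Psmb10: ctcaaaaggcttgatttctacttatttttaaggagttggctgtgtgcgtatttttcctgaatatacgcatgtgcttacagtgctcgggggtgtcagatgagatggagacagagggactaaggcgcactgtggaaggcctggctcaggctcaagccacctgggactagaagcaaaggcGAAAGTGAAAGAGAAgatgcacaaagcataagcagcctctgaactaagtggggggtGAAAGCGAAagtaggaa
Psmd9: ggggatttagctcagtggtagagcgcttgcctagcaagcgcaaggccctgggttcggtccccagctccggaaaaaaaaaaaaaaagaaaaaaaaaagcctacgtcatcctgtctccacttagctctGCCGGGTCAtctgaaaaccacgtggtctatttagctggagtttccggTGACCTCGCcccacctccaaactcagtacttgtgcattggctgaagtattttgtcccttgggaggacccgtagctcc
Psmd1: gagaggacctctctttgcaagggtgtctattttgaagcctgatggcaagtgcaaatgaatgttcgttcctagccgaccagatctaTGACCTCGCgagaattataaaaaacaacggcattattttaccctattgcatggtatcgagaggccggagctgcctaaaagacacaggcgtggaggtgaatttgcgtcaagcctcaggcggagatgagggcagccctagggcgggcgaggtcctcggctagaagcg

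Over the 28 treatments and medium, the 29 members gave 841 comparisons, of which 63 were called higher (7.49%) and 15 lower (1.78%). All probes over the same comparisons were called higher in 7.45% and lower in 7.68%, so the share of members called higher was that of probes in general and the share called lower was smaller. The higher calls gathered in a few treatments at the higher concentration, and most others had none. Of the 29 members, 19 were called higher at least once, 7 were called lower at least once and 5 were never called. The matching shares of all probes were not counted, so these counts cannot be set against probes in general. The same holds for the number of treatments in which a single member was called. Psmb10 accounted for 9 of the 15 lower calls. The core subunits gave 24 higher calls and 1 lower in 261 comparisons (9.2% higher) and the regulatory particle subunits gave 32 higher and 2 lower in 406 (7.88% higher), both near the share of all probes.

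**Figure D1:**
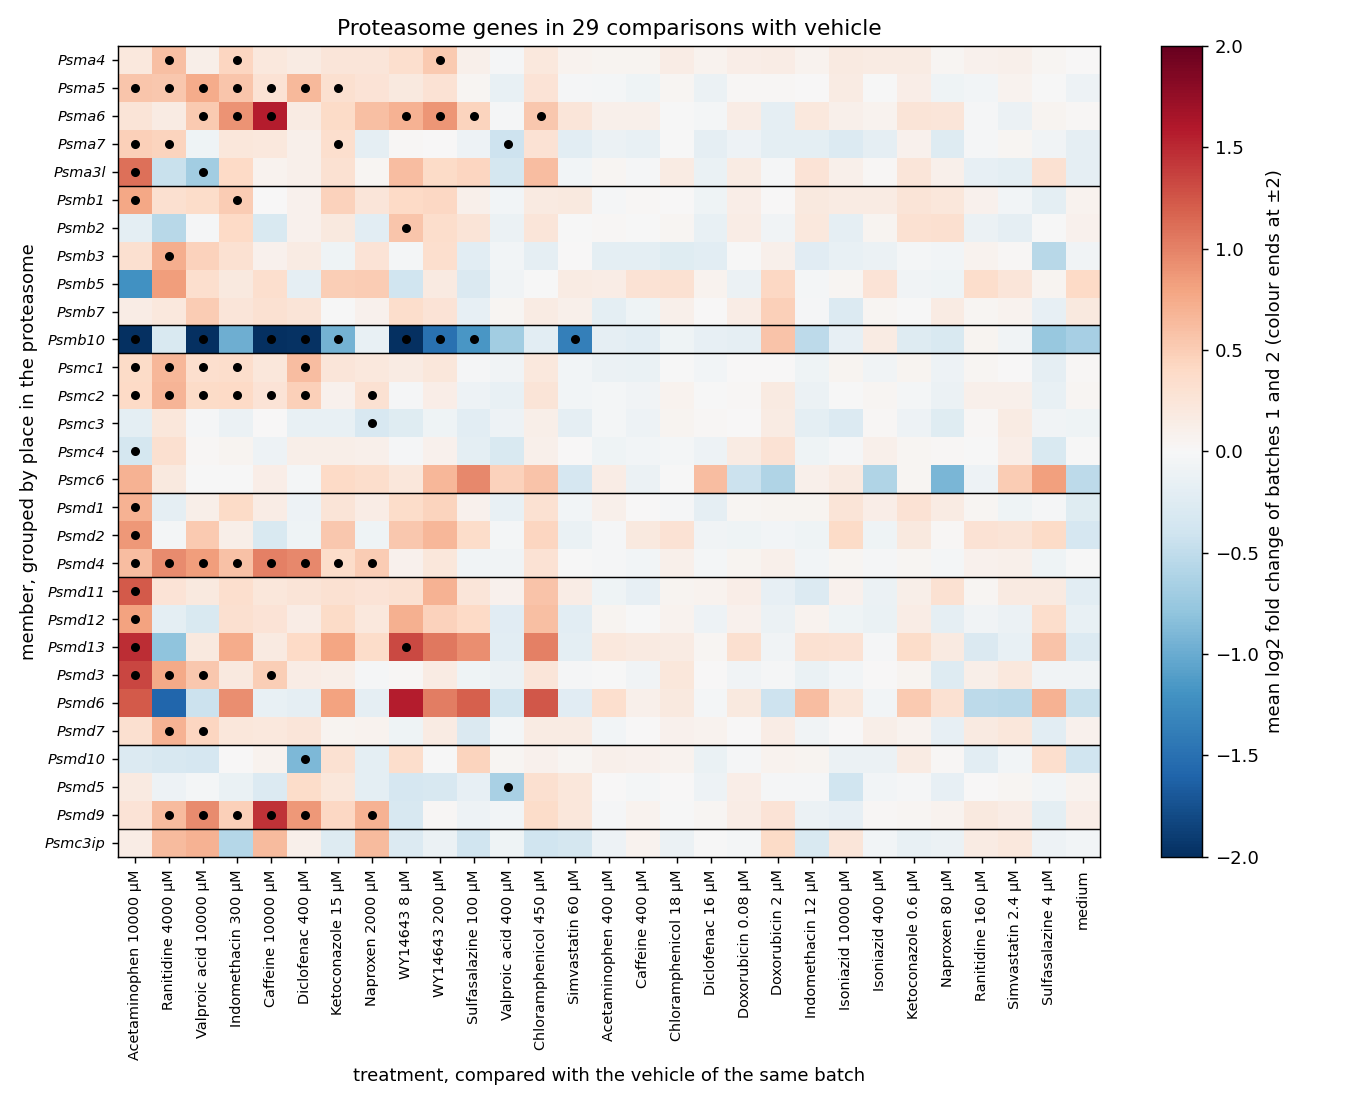
Mean log2 fold change of batches 1 and 2 for the 29 tested members (rows, grouped by place in the proteasome) in the 28 treatments and medium (columns, ordered by the number of members called), with a black dot where a member was called in both batches and the colour ending at ±2. Dots gather in the 6 leftmost treatments, where 7 to 15 members were called, and the Psmb10 row is the deepest blue, at -3.67 in 10000 µM acetaminophen.

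By role, the 4 members of the alpha ring of the core gave 20 higher calls in 116 comparisons (17.2%) and the 5 of the beta ring 4 in 145 (2.76%), where all probes were called higher in 7.45%. The difference between the rings was not tested, and read depth differed between them as well. The alpha probes averaged 674.8 to 2323 reads per well. In the beta ring Psmb5, Psmb7 and Psmb3 averaged 12.19, 94.29 and 175.7, and Psmb1 and Psmb2 averaged 743.3 and 1107. The part of depth in the difference was not tested. Psma5 rose in 7 treatments, among them all 6 described one by one further on, as did Psmc2 and Psmd4. Its CPM in batch 1 were 322.6, 306.9 and 326.6 in vehicle, 646.6, 638.2 and 606.9 in 10000 µM valproic acid, and 526.5, 492.9 and 510.9 in 400 µM diclofenac. In batch 2 they ran from 290.9 to 345.3 (median 314.3) over the 6 vehicle wells and were 549.1, 684.8 and 668.8 in valproic acid. Every valproic acid and diclofenac well of batch 1, and every valproic acid well of batch 2, lay above all vehicle wells of its batch. The L2FC of Psma5 in valproic acid was 0.79 ± 0.10 (SE) in batch 1 and 0.70 ± 0.09 in batch 2. In 10000 µM caffeine Psma5 stood at 421.7, 335.6 and 299.5 CPM in batch 2, overlapping the vehicle wells, with an L2FC of 0.21 ± 0.09.

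Psma6, also of the alpha ring, rose in 7 treatments and most in 10000 µM caffeine. Its CPM were 191.9, 159.7 and 180.2 in the vehicle wells of batch 1 against 472.5, 415.2 and 418.9 in caffeine. In batch 2 the vehicle wells ran from 139.7 to 185.1 (median 160.7) and the caffeine wells were 497.8, 592.5 and 413.5. No caffeine well came near a vehicle well in either batch, and the L2FC was 1.47 ± 0.18 in batch 1 and 1.68 ± 0.12 in batch 2 (adjusted p = 1.33e-10 and 2.31e-21, edgeR quasi-likelihood test with Benjamini-Hochberg adjustment). The other treatments with a call were valproic acid at 10000 µM, indomethacin at 300 µM, chloramphenicol at 450 µM, sulfasalazine at 100 µM and both concentrations of WY14643. In 10000 µM acetaminophen Psma6 overlapped vehicle, with 120.1, 173.8 and 136.7 CPM in batch 1 and 164.6, 150.5 and 168 in batch 2.

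The alpha subunits Psma4 and Psma7 had 3 higher calls each, and Psma7 was called lower in 400 µM valproic acid, with L2FC of -0.36 and -0.47 in batches 1 and 2. Psma3l split by treatment. It rose in acetaminophen, from 335.5, 311.1 and 407.9 CPM in vehicle to 495.1, 535 and 478 in batch 1, and was called lower in 10000 µM valproic acid, where its wells overlapped vehicle in batch 2.

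In the beta ring, Psmb1 was called higher in acetaminophen and in 300 µM indomethacin, Psmb2 in 8 µM WY14643 and Psmb3 in 4000 µM ranitidine. Psmb5 and Psmb7, which cut after hydrophobic and after basic residues, were not called in any of the 29 comparisons with vehicle. Psmb5 was read at low depth, with 1.21, 1.638 and 0.714 CPM in the vehicle wells of batch 1 and 0.275, 0.307 and 0.403 in 10000 µM acetaminophen. Those wells did not overlap in either batch, but the L2FC of -1.37 ± 0.72 in batch 1 had an adjusted p of 0.085 (edgeR quasi-likelihood test, Benjamini-Hochberg), so the difference missed the threshold. Psmb7 had its highest mean L2FC, 0.51, in 10000 µM valproic acid, where batch 1 had an adjusted p of 0.056 by the same test.

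Among the ATPases of the base, Psmc2 rose in 7 treatments and Psmc1 in 5, while Psmc3, Psmc4 and Psmc6 gave no higher call. Psmc1 in the vehicle wells of batch 1 stood at 313.5, 312.6 and 302.9 CPM, against 516.4, 501.1 and 512.4 in 400 µM diclofenac and 419.4, 457.9 and 427.1 in 4000 µM ranitidine. The spread of Psmc1 over vehicle wells was small, and each of these treated wells lay above all of them. Psmc4 was called lower in acetaminophen, with L2FC of -0.39 ± 0.13 and -0.30 ± 0.10 in batches 1 and 2, and Psmc3 in 2000 µM naproxen, with -0.34 and -0.31. Psmc6 averaged 12.17 reads per well and was not called in any comparison with vehicle. Its L2FC had a standard error of 0.66 and 0.63 in acetaminophen.

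Psmd4, the base subunit that binds ubiquitin chains, was the member called higher most often, in 8 treatments. In batch 1 its CPM were 201.9, 190.4 and 206.6 in vehicle, 430, 353.9 and 377.8 in 400 µM diclofenac and 364.3, 325.1 and 313.9 in 10000 µM caffeine. In batch 2 the vehicle wells ran from 175.1 to 199 (median 181.4), the diclofenac wells were 436, 438.3 and 442, and the caffeine wells were 358.5, 370.2 and 392.5. Diclofenac and caffeine thus held all of their Psmd4 wells above the vehicle wells, with L2FC of 0.84 ± 0.09 and 1.09 ± 0.08 for diclofenac and 0.91 ± 0.09 and 1.09 ± 0.08 for caffeine. The call was also made in ranitidine, 10000 µM valproic acid, indomethacin, naproxen, ketoconazole and acetaminophen, each at the higher concentration. The scaffold subunits of the base, Psmd1 and Psmd2, were called in acetaminophen and in no other treatment.

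**Figure D2:**
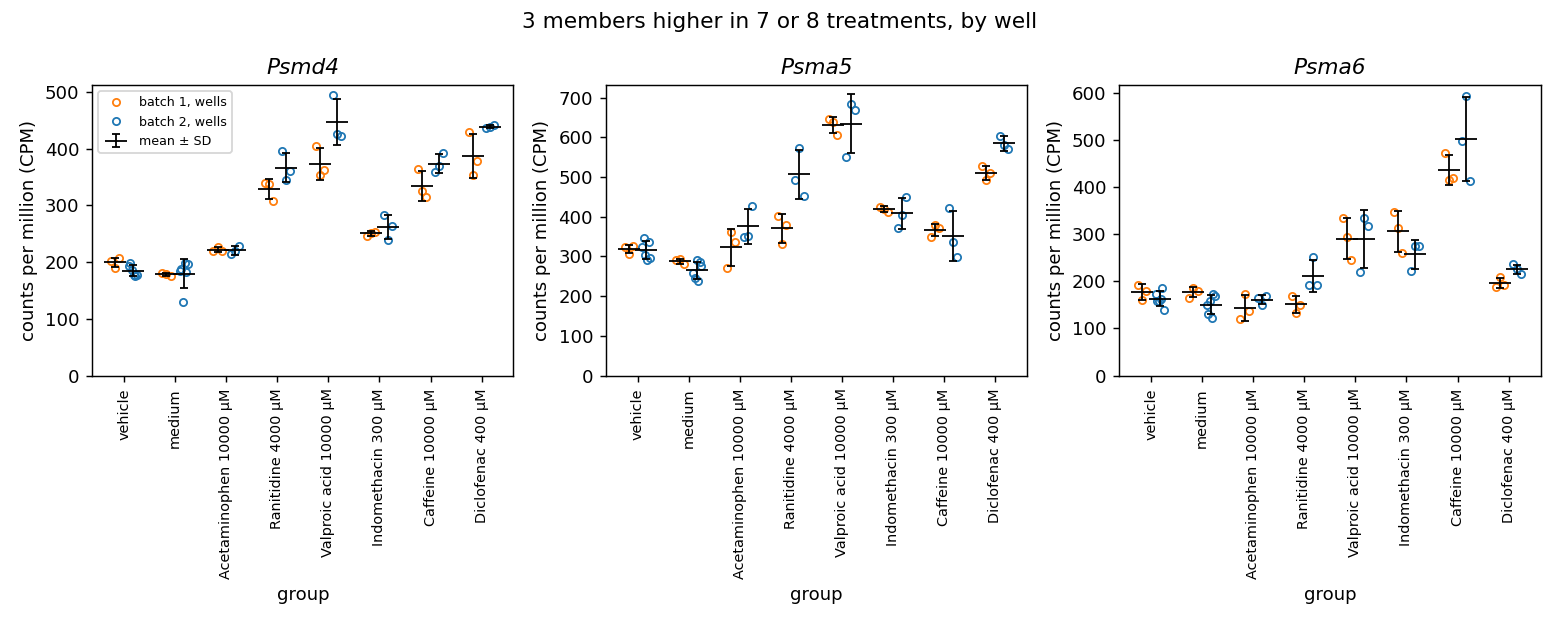
CPM of Psmd4, Psma5 and Psma6 in each well of the vehicle, medium and the 6 treatments with the most members called, with batch 1 in orange, batch 2 in blue and black bars for the mean ± SD over the wells of a batch (3 wells, or 6 for vehicle and medium in batch 2). The highest Psmd4 well, 494 CPM, was in valproic acid, and the highest Psma6 well, 592.5 CPM, was in caffeine.

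Of the 6 lid subunits, Psmd3 rose in 4 treatments, Psmd7 and Psmd13 in 2 each, Psmd11 and Psmd12 in 1 each and Psmd6 in none. Psmd3 in acetaminophen reached 244, 236.4 and 285.5 CPM in batch 1, against 125.6, 133.4 and 136.4 in vehicle, and 252.8, 281.1 and 314.3 in batch 2, against 141.5 to 167.7 (median 153.5). The acetaminophen wells were clear of vehicle in both batches. Psmd6 varied widely between wells of 1 group, from 3.11 to 14.3 CPM over the vehicle wells of batch 2, and the standard error of its L2FC was 0.50 to 0.73 in acetaminophen, ranitidine and 8 µM WY14643. In 8 µM WY14643 Psmd6 had L2FC of 1.23 and 1.93 in batches 1 and 2, of which the second passed the threshold.

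The assembly factor Psmd9, which helps the ATPases of the base to come together, rose in 6 treatments. Its CPM were 26.38, 32.95 and 28.04 in vehicle, 54.71, 65.65 and 59.24 in 10000 µM caffeine and 50.72, 47.45 and 65.13 in 10000 µM valproic acid in batch 1. In batch 2 the vehicle wells ran from 21.6 to 36.5 (median 27.8), the caffeine wells were 81.54, 86.29 and 94.29, and the valproic acid wells were 82.55, 75.05 and 83.9. Caffeine and valproic acid were again clear of vehicle in both batches. The related factors Psmd10 and Psmd5 each had 1 call, both lower. Psmd10 fell in 400 µM diclofenac, from 33.88, 32.41 and 40.36 to 21.29, 20 and 23.52 CPM in batch 1, and to 23.12, 24 and 20.32 in batch 2, where vehicle ran from 37.3 to 40.8 (median 38.9). Psmd5 fell in 400 µM valproic acid, with 12.99, 7.378 and 9.98 CPM against 16.33, 14.56 and 17.5 in batch 1 and 11.1, 11.58 and 12.74 against 16.9 to 21.4 (median 20.1) in batch 2. In both cases the treated wells lay under all vehicle wells. Psmd10 in medium also lay under all vehicle wells, at 23.39, 25.23 and 29.89 CPM in batch 1 and 24.9 to 29.3 in batch 2, but was not called there.

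Acetaminophen, an analgesic whose reactive metabolite depletes glutathione in the liver at high dose, called at 10000 µM 13 members higher (44.8% of the 29), against 29.7% of all probes, and 2 lower (6.9%), against 31.1% of all probes. The regulatory particle gave 9 of the 13 higher calls. The member with the highest mean L2FC was Psmd13 of the lid, with 121.4, 91.76 and 86.38 CPM against 47.19, 37.68 and 61.97 in vehicle in batch 1, and 60.13, 43.93 and 74.76 against 15.0 to 34.7 (median 29.1) in batch 2. Its wells lay above vehicle in both batches, with L2FC of 1.46 ± 0.41 and 1.5 ± 0.34. Psmd3 followed at 1.39 ± 0.12 and 1.28 ± 0.11, then Psmd11 at 0.97 ± 0.33 and 1.49 ± 0.26, Psma3l, Psmd2, Psmd12 and Psmb1. Psmd11 rested on few reads, and its batch 1 wells at 6.869, 3.074 and 3.222 CPM overlapped the vehicle wells at 1.452, 2.731 and 4.821. In CPM, Psma5 and Psmb1 also overlapped vehicle in batch 1, and Psma7, Psmc1, Psmc2, Psmd1, Psmd2 and Psmd12 did in both batches, while the calls were made on the TMM scale.

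The sign of several members in acetaminophen depended on the scale. The L2FC are set against the bulk of the probes by the TMM factors of edgeR, while CPM are set against the total reads, and the median of all tested probes on the CPM scale was -0.48 in batch 1 and -0.41 in batch 2 (log2). The TMM medians of all probes were -0.05 and -0.02. By L2FC 22 of the 29 members were above 0 in both batches and 6 were below, and by log2 ratio of mean CPM 11 were above and 11 below. On the CPM scale 3 of the 15 members called in acetaminophen, Psma7, Psmc1 and Psmc2, changed sign in a batch, and none of the called members did in the other 5 treatments named next. The CPM-scale median of all probes was -0.19 and -0.06 in ranitidine, 0.17 and 0.32 in valproic acid, -0.27 and -0.06 in indomethacin, -0.18 and -0.04 in caffeine, and 0.08 and 0.16 in diclofenac, for batches 1 and 2.

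Ranitidine at 4000 µM, a histamine H2 receptor blocker, called 10 members higher (34.5%), against 19.6% of all probes. No member was called lower by edgeR, at an unadjusted p under 0.05 or by DESeq2, against 19.3% of all probes. Psmd4 led, with 339.6, 337.4 and 308.3 CPM in batch 1 and 395, 344.4 and 360.1 in batch 2, above all vehicle wells, and L2FC of 0.87 ± 0.09 and 1.04 ± 0.08. Psmd3, Psmb3, Psmd7, Psmc2, Psmc1, Psmd9 and Psma4 followed with mean L2FC from 0.75 down to 0.61, and Psma5 and Psma7 were also called, Psma7 with wells that overlapped vehicle in batch 1. Ranitidine gave the core subunit Psmb3 its only call against vehicle, with 41.18, 30.9 and 36.49 CPM against 22.5, 29.86 and 23.75 in vehicle in batch 1, and 50.92, 37.32 and 45.82 against 23.0 to 31.4 (median 27.2) in batch 2. The ranitidine wells of Psmb3 were above all vehicle wells in both batches.

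Valproic acid at 10000 µM, an inhibitor of histone deacetylases, called 8 members higher (27.6%), against 20.9% of all probes, and 2 lower (6.9%), against 21.4%. The higher calls included Psmd9, Psmd4, Psma5, Psmd3, Psma6 and Psmd7, in that order of mean L2FC from 0.94 to 0.42. The lower calls were Psmb10 and Psma3l. Psmd7 of the lid reached 162.9, 177.5 and 178.2 CPM against 114.7, 126.3 and 103 in vehicle in batch 1, and 234.7, 193.8 and 204.8 against 118 to 139.3 (median 122.7) in batch 2. The valproic acid wells of Psmd7 did not overlap vehicle. At 400 µM the same chemical called none of these higher and 2 members lower (6.9%), Psma7 and Psmd5, against 4.40% of all probes.

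Indomethacin at 300 µM, an inhibitor of cyclooxygenases, called 8 members higher (27.6%), against 14.0% of all probes. No member was called lower by edgeR or DESeq2, and 1 was lower at an unadjusted p under 0.05 in both batches, against 15.1% of all probes called lower. The members were Psma6, Psmd4, Psma5, Psmb1, Psmd9, Psma4, Psmc2 and Psmc1, with mean L2FC from 0.89 to 0.35. Psma6 stood at 346.1, 312.1 and 259.6 CPM in batch 1 and 221.3, 275.5 and 274.1 in batch 2, all above the vehicle wells. Psmc2 and Psma4 overlapped vehicle in batch 2, and Psmb1 in batch 1. Psmd9 overlapped in both. The indomethacin wells of batch 2 shared their plate with 3 of the vehicle wells, and 5 members were called against those 3 wells alone.

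Caffeine at 10000 µM called 6 members higher (20.7%), against 20.0% of all probes, and 1 lower (3.45%), against 21.4%. The higher share was thus close to that of all probes, and the change lay in a few genes of large size. Psma6, Psmd9 and Psmd4 rose by 1.57, 1.44 and 1.00 on the mean L2FC, while Psmd3, Psma5 and Psmc2 rose by 0.50 or less. The calls of Psma5 and Psmc2 were the least firm, with adjusted p of 0.0274 and 0.0462 in batch 2 (edgeR quasi-likelihood test, Benjamini-Hochberg), and Psmc2 was not called with DESeq2 or with RLE factors. Psmd3, Psma5 and Psmc2 overlapped vehicle in CPM in batch 2. The member called lower was Psmb10.

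Diclofenac at 400 µM, a nonsteroidal anti-inflammatory drug, called 5 members higher (17.2%), against 23.0% of all probes, and 2 lower (6.9%), against 26.2%. The share called higher was below that of all probes. The genes were Psmd4, Psmd9, Psma5, Psmc1 and Psmc2, with mean L2FC from 0.96 to 0.47, and Psmd10 and Psmb10 on the lower side. Each of these wells was clear of vehicle in CPM in both batches, which for Psmc2 meant 757.4, 801.7 and 823.8 against 548.7, 513.2 and 547.2 in batch 1 and 666.7, 673.3 and 720.3 against 411.7 to 482.5 (median 425.1) in batch 2.

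A further 8 of the 28 treatments called between 1 and 4 members. Ketoconazole at 15 µM called 4 of 29, against 25.3% of all probes in either direction, naproxen at 2000 µM called 4, against 28.5%, and WY14643 called 4 at 8 µM, against 29.9%, and 3 at 200 µM, against 28.8%. Sulfasalazine at 100 µM called 2, against 12.8%, chloramphenicol at 450 µM called 1 higher, against 2.84% higher, and simvastatin at 60 µM called 1 lower, against 3.39% lower, which with 400 µM valproic acid makes the 8. In ketoconazole, naproxen, sulfasalazine and both concentrations of WY14643 the members called made up a smaller share of the 29 than the probes called did of all probes, and in the others 1 or 2 members were called. In 8 µM WY14643, Psmd13 had L2FC of 1.04 and 1.61 and Psma6 of 0.75 and 0.64, and in 200 µM WY14643 Psma6 had 1.01 and 0.75. At 8 µM the Psma6 wells had 197.1, 269.9 and 223.8 CPM in batch 1 and 192.4, 238.2 and 230.3 in batch 2, above all vehicle wells, while Psmd13 overlapped vehicle in batch 1. The remaining 14 treatments and medium called no member by edgeR or DESeq2, in 435 comparisons, against 1.72% of all their 160335 pairs of probe and treatment. At an unadjusted p under 0.05 in both batches, 1 of the 435 was higher and 5 were lower. Among these were doxorubicin at 2 µM and isoniazid at 10000 µM.

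In medium against vehicle, which asks what the solvent changed, no member was called by edgeR or DESeq2, and the TMM medians were near 0. The median L2FC of the core was 0.07 and -0.03 in batches 1 and 2, and that of the regulatory particle was -0.08 and -0.11. On the CPM scale, where the median of all probes was -0.10 and -0.09, 22 of the 29 members were below vehicle in both batches and none above, and the regulatory particle had medians of -0.17 in each batch. Psmb10 had L2FC of -0.51 ± 0.27 and -0.81 ± 0.20 in medium, past the threshold in batch 2 but not in batch 1.

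Core and regulatory particle were set side by side by their median L2FC. In acetaminophen the regulatory particle stood above the core, with medians of 0.67 and 0.68 in batches 1 and 2 against 0.22 and 0.38, where the median of all probes was -0.05 and -0.02. The lid alone had 0.96 and 1.38. On the CPM scale, where the median of all probes was below 0, the core had -0.24 and -0.02 and the regulatory particle 0.25 and 0.30, so the order held while the core changed sign. Regulatory particle minus core, as the mean of both batches, was 0.379. The 9 core genes leave out Psma3l, which had L2FC of 0.95 and 1.24 in acetaminophen. The contrast was 0.173 when every member was sorted by name alone, with Psma3l, the assembly factors, Psmc3ip and the inducible subunit included. In acetaminophen 9 of the 14 regulatory particle subunits were called higher and 1 lower, and 3 of the 9 core subunits were called higher, where 29.7% of all probes were higher and 31.1% lower, so the core lay near the share of all probes. In ranitidine the order was turned, with core medians of 0.33 and 0.51 against 0.15 and 0.35, and 4 of 9 core and 5 of 14 regulatory particle subunits were called higher, where 19.6% of all probes were. The core also stood higher in valproic acid, at 0.37 and 0.35 against 0.26 and 0.16, while in caffeine, at 0.29 and 0.15 against 0.23 and 0.11, regulatory particle minus core ran from -0.0819 to 0.018 when single wells were left out, so that no order held. In indomethacin the order differed between batches, with 0.52 and 0.28 for the core and 0.24 and 0.35 for the regulatory particle. In diclofenac the core had 0.03 and 0.19 and the regulatory particle 0.12 and 0.25.

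The same contrast was taken in each well as the mean log2(CPM + 1) of the 14 regulatory particle genes minus that of the 9 core genes, relative to the vehicle mean of the batch. The 3 acetaminophen wells gave 0.687, 0.206 and 0.458 in batch 1 and 0.329, 0.121 and 0.767 in batch 2, for means of 0.45 ± 0.24 (SD, n = 3) and 0.41 ± 0.33 (SD, n = 3). Vehicle wells ran from -0.109 to 0.208 in batch 1 (SD 0.18, n = 3) and from -0.206 to 0.176 in batch 2 (SD 0.16, n = 6). All 6 acetaminophen values were positive, but the lowest of each batch lay inside the vehicle range. In batches 1 and 2, ranitidine wells ran from -0.321 to 0.003 and from -0.247 to -0.0613. Valproic acid wells at 10000 µM ran from -0.22 to -0.0191 and from -0.249 to 0.0165. Both treatments overlapped the vehicle wells in each batch. Acetaminophen ranked first of the 28 treatments and medium by the mean of both batches, at 0.43, followed by 450 µM chloramphenicol at 0.23, and 4000 µM ranitidine was last at -0.17, next to medium at -0.14, where the values of all 9 wells were negative, from -0.261 to -0.0609. Neighbours in that order differed by less than the spread between wells. No test was made of these scores, since the members were chosen with results known.

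**Figure D3:**
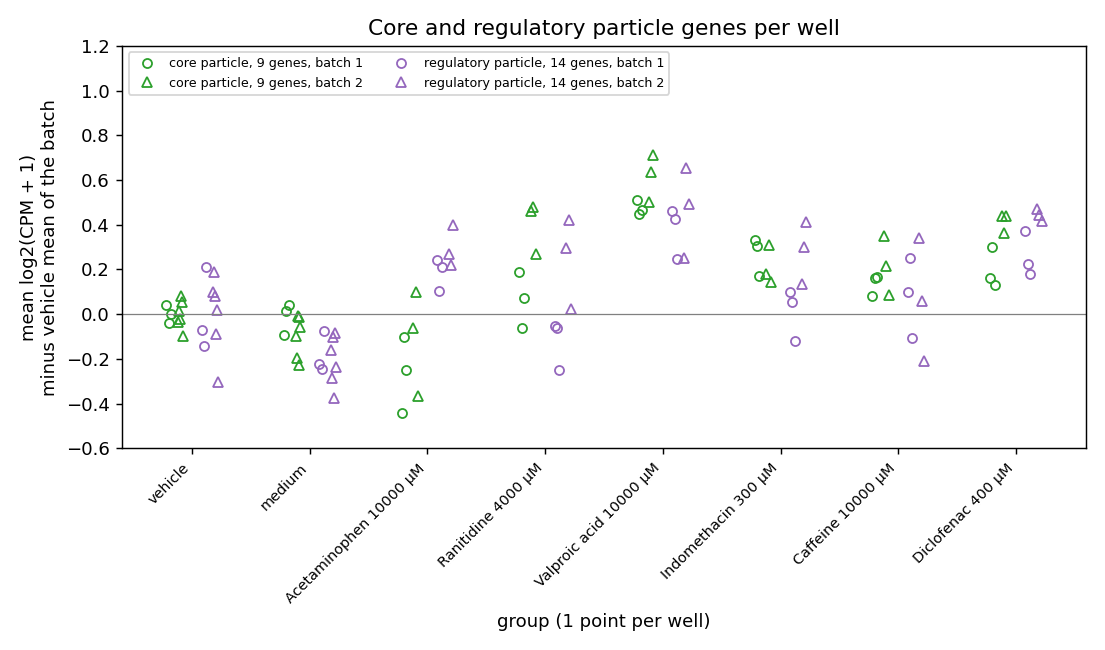
Mean log2(CPM + 1) of the 9 core genes (green) and the 14 regulatory particle genes (purple) in each well, minus the vehicle mean of the same batch, with circles for batch 1 and triangles for batch 2. Acetaminophen is the column where both colours part, with core wells from -0.444 to 0.0977 and regulatory particle wells from 0.103 to 0.401.

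Psmb10, the inducible subunit that takes the place of Psmb7 in the immunoproteasome, went the other way. It was called lower in 9 treatments and higher in none. The falls were largest in acetaminophen, with L2FC of -3.57 ± 0.40 and -3.77 ± 0.33, valproic acid, with -3.43 ± 0.35 and -3.60 ± 0.31, and caffeine, with -3.16 ± 0.36 and -2.80 ± 0.29, for batches 1 and 2 and each at 10000 µM (adjusted p from 1.15e-13 to 3.63e-17 in batch 2, edgeR quasi-likelihood test with Benjamini-Hochberg adjustment). The other 6 were WY14643 at 8 µM (-1.91 and -2.63) and at 200 µM (-1.36 and -1.62), diclofenac at 400 µM (-1.78 and -2.18), simvastatin at 60 µM (-1.05 and -1.68), sulfasalazine at 100 µM (-1.01 and -1.31) and ketoconazole at 15 µM (-0.87 and -1.01). For WY14643 the mean L2FC was lower at 8 µM, -2.27, than at 200 µM, -1.49, and the difference between the concentrations was not called.

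By well, Psmb10 had 21.54, 21.12 and 15 CPM in the vehicle of batch 1 and 17.1 to 30.8 (median 22.6) in that of batch 2. In acetaminophen it had 0.824, 1.076 and 1.611 in batch 1 and 1.603, 0.83 and 1.464 in batch 2. These acetaminophen values stand for 3 to 14 reads per well, so they are near the limit of what the depth resolves, but every well was far under the lowest vehicle well. Valproic acid wells had 1.896, 2.946 and 0.998 CPM in batch 1 and 3.74, 1.739 and 1.616 in batch 2. Caffeine wells had 2.265, 1.925 and 1.524 in batch 1 and 5.47, 2.538 and 1.705 in batch 2. In doxorubicin at 2 µM the wells were above vehicle, at 26.77, 26.29 and 28.4 in batch 1 and 33.82, 34.88 and 40.07 in batch 2, but with L2FC of 0.57 ± 0.26 and 0.56 ± 0.22 the difference was not called.

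The inducible subunits that the selection of members left out, Psmb8 and Psmb9, fell with Psmb10 in acetaminophen, valproic acid, caffeine, simvastatin, sulfasalazine and both concentrations of WY14643. In acetaminophen Psmb8 had L2FC of -2.90 and -2.28 and Psmb9 of -1.97 and -1.65 in batches 1 and 2. In caffeine the L2FC were -1.65 and -0.84 for Psmb8 and -3.13 and -2.01 for Psmb9. In valproic acid Psmb8 had -0.55 and -0.77 and Psmb9 -0.99 and -1.17, beside the -3.43 and -3.60 of Psmb10. The 3 genes did not go together everywhere, since Psmb8 was called higher in ranitidine, at 0.95 and 0.52, while Psmb9 and Psmb10 were not called there, and in diclofenac Psmb8 had 0.23 and 0.01, uncalled, beside falls in the other two. In 15 µM ketoconazole, where Psmb10 was lower, Psmb8 (0.01 and 0.33) and Psmb9 (-0.13 and -0.22) were not called. In 300 µM indomethacin Psmb9 was called lower, at -0.65 and -0.87, while Psmb8 (-0.31 and -0.74) and Psmb10 (-0.64 and -1.32) were not called, though the wells of all 3 genes lay under the vehicle wells in both batches. Psme1 and Psme2, subunits of the PA28 activator that interferon also raises, were lower in acetaminophen (Psme1 -1.31 and -1.07, Psme2 -1.82 and -1.52) and caffeine (Psme1 -1.27 and -1.01, Psme2 -1.15 and -0.89).

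**Figure D4:**
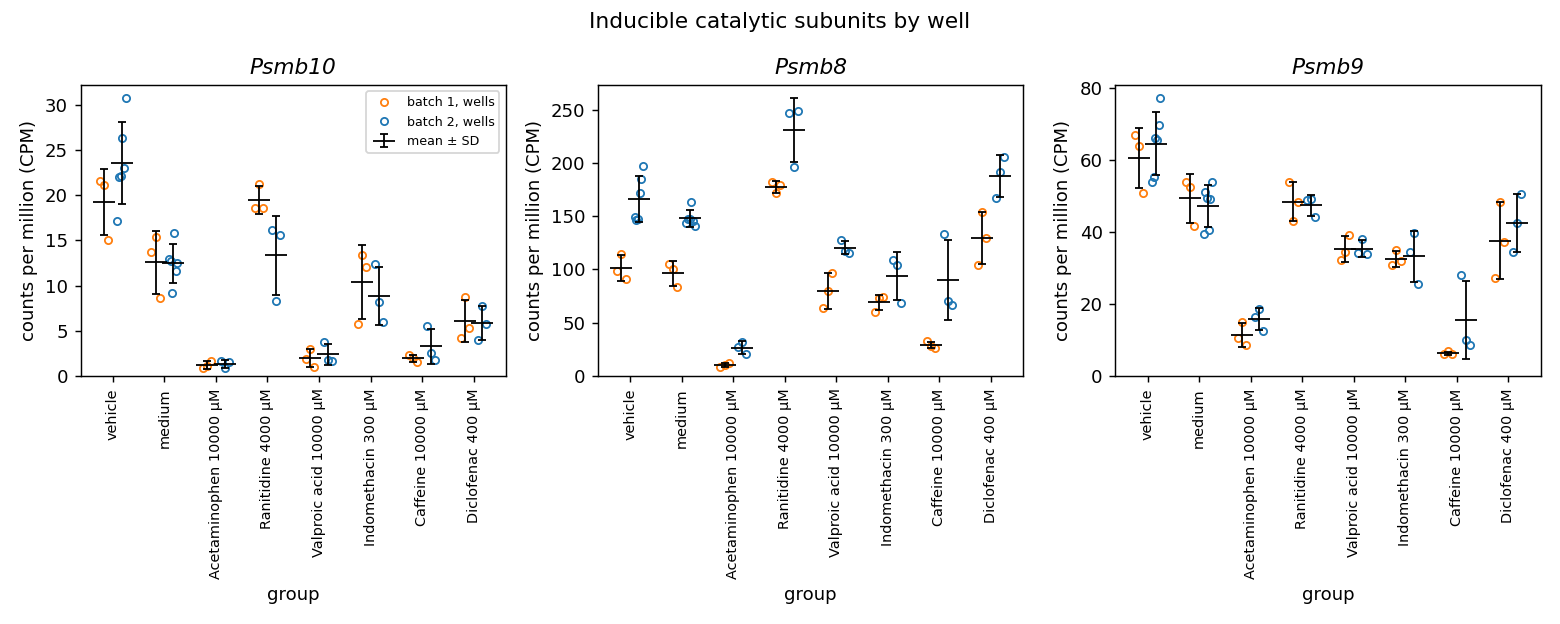
CPM of Psmb10, Psmb8 and Psmb9 in each well of the vehicle, medium and the 6 treatments with the most members called, with batch 1 in orange, batch 2 in blue and black bars for the mean ± SD over the wells of a batch. Psmb10 lies under 6 CPM in every acetaminophen, valproic acid and caffeine well, against 15 or more in every vehicle well, while Psmb8 in ranitidine lies between 171.7 and 248.8 CPM.

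Markers of other cell types moved with Psmb10 in some treatments. The 8 Kupffer cell and leukocyte markers, all present in the table and 4 of them tested, summed to 41.1 to 48.6 CPM in the vehicle wells of batch 1 and 27.4 to 38.4 in batch 2. The sums were 10.1 to 12.9 and 5.64 to 14.3 in caffeine, 18.8 to 19.7 and 12.8 to 14.0 in valproic acid, and 21.8 to 30.8 and 19.4 to 34.0 in acetaminophen. C1qa, C1qb and Ptprc were at 0 in all caffeine wells and C1qa in all valproic acid wells. These probes were read at low depth in vehicle too, at 0.42 to 2.14, 0.69 to 2.2 and 0 to 1.03 CPM. They were not among the 4 tested. Ptprc was also at 0 in all valproic acid wells of batch 1 and all acetaminophen wells of batch 2. In ranitidine, where Psmb10 was not called, the sums were as low as 16.9 to 26.5 and 17.4 to 24.6, and in indomethacin they were 17.2 to 22.7 and 12.5 to 14.1. In diclofenac, where Psmb10 was called lower, they were 30.04 to 31.29 and 21.64 to 23.03, also under vehicle. Of the 4 tested markers, 3 were called lower in caffeine, valproic acid and ranitidine and 2 in acetaminophen, indomethacin and diclofenac, and 1 was called higher in acetaminophen, ranitidine and diclofenac. Over these 6 treatments, 15.1% to 31.1% of all probes were called lower and 14.0% to 29.7% higher, which applies to each marker list here. In lysates of whole wells, fewer cells of a type and less RNA per cell cannot be told apart, and the part of such cells in the fall of Psmb10 was not tested. The 12 hepatocyte markers, with Alb at 10820 to 14790 CPM in vehicle, were all present and summed to 51800 to 64790 CPM over vehicle wells. They summed to 30350 to 41030 in acetaminophen, 15470 to 25050 in ranitidine, 22510 to 42650 in valproic acid, 36690 to 56470 in indomethacin, 42540 to 82910 in caffeine and 7850 to 11640 in diclofenac, and of the 12, 7 were called lower and 1 higher in acetaminophen, 10 lower in ranitidine, 9 lower in valproic acid, 2 lower and 3 higher in indomethacin, 4 lower and 5 higher in caffeine and 12 lower in diclofenac. The 6 endothelial markers were read at low depth and summed to 2.86 to 4.92 CPM in the vehicle wells of batch 1 and 2.07 to 4.55 in those of batch 2. They summed to 0.79 to 1.25 and 0.53 to 1.07 in valproic acid, below vehicle in both batches. The sums were also below vehicle in batch 1 in ranitidine (1.34 to 1.60), indomethacin (0.747 to 1.86) and caffeine (0.349 to 1.54), and overlapped it in batch 2, while acetaminophen and diclofenac overlapped vehicle in both batches. Of 4 tested probes of 3 stellate cell and fibroblast markers, 4 were called lower in caffeine and ranitidine and 2 in the other 4 treatments. Of 3 tested probes of biliary markers, 2 were called lower in diclofenac and 1 in indomethacin and ranitidine, and 1 was called higher in ranitidine and valproic acid. The part of these cell types in the results for the members was not tested.

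The higher concentration was also set against the lower one of the same chemical, which uses no vehicle well. In that comparison acetaminophen called 13 members higher (44.8%), against 26.9% of all probes, valproic acid 12 (41.4%), against 20.9%, and ranitidine 9 (31%), against 16.2%. Caffeine called 8 (27.6%), against 18.1%, diclofenac 6 (20.7%), against 21.3%, and indomethacin 6 (20.7%), against 9.48%. Naproxen called 6 higher as well (20.7%), against 11.9%. On the lower side, acetaminophen called Psmb10 and Psmb5 (28.9% of all probes were lower), diclofenac Psmb10 and Psmd10 (25.2%), and valproic acid (22.0%), caffeine (20.4%) and simvastatin (3.77%) Psmb10 alone. Psmb5, not called against vehicle, had L2FC of -1.62 and -1.10 here in batches 1 and 2. Psma5, Psmc1, Psmc2 and Psmd4 were called higher between the concentrations of all 6 chemicals, Psmd4 with mean L2FC from 0.65 in indomethacin and acetaminophen to 1.06 in caffeine. By the mean of both batches the largest value on the higher side was that of Psma6 in caffeine, 1.45 and 1.48 in batches 1 and 2.

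The ST assay held 9 of the members, read from the same lysates in separate libraries, so it shares the variation between wells. It called 6 of the 9 in acetaminophen, against 62.8% of its 1781 tested probes, 4 in ranitidine, against 46.7%, 5 in valproic acid, against 45.5%, 3 in indomethacin, against 37.0%, 5 in caffeine, against 50.4%, and 6 in diclofenac, against 60.1%. Psma5 and Psmd4 were called higher in all 6 of these treatments by the ST assay, as they were by the WT assay. Of the WT calls in these treatments, 5 were not made by the ST assay with the same probes. They were Psmd10 in diclofenac, at -0.32 and -0.45 by ST, Psmd9 in ranitidine (0.19 and 0.43), valproic acid (0.41 and 0.94) and indomethacin (0.25 and 0.47), and Psmc1 in indomethacin (0.09 and 0.30), each past the threshold in batch 2 and not in batch 1. For Psmb10 the ST assay gave L2FC of -3.03 and -3.12 in acetaminophen, -3.76 and -3.73 in valproic acid and -2.57 and -2.63 in caffeine, and it also called the gene lower in indomethacin, at -1.0 and -1.24, where the WT assay gave an adjusted p of 0.0576 in batch 1 (edgeR quasi-likelihood test, Benjamini-Hochberg) and no call. Psmb3 was called higher in acetaminophen, diclofenac and valproic acid by the ST assay, with mean L2FC from 0.47 to 0.65, and not by the WT assay, but the assays read Psmb3 with different probes, alone among the 9. Psmc1 was called higher in 10000 µM caffeine by the ST assay, at 0.39 and 0.35, and not by the WT assay with the same probe. Psmd6 was called higher in 8 µM WY14643 by the ST assay, at 1.11 and 1.03.

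Each batch was 1 rat, and the effects on the members were compared between them. A test of the difference between batches (interaction of batch and treatment in edgeR) called 2 of the 841 pairs of member and comparison, against 2.22% of all pairs of probe and comparison, and 61 had an unadjusted p under 0.05, against 11.9% of all pairs. In 4000 µM ranitidine 9 of the 29 members had such a p, against 26.3% of all probes, and none of them was called. The pairs called were Psmc4 in 18 µM chloramphenicol and Psmc3ip in 450 µM chloramphenicol.

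**Figure D5:**
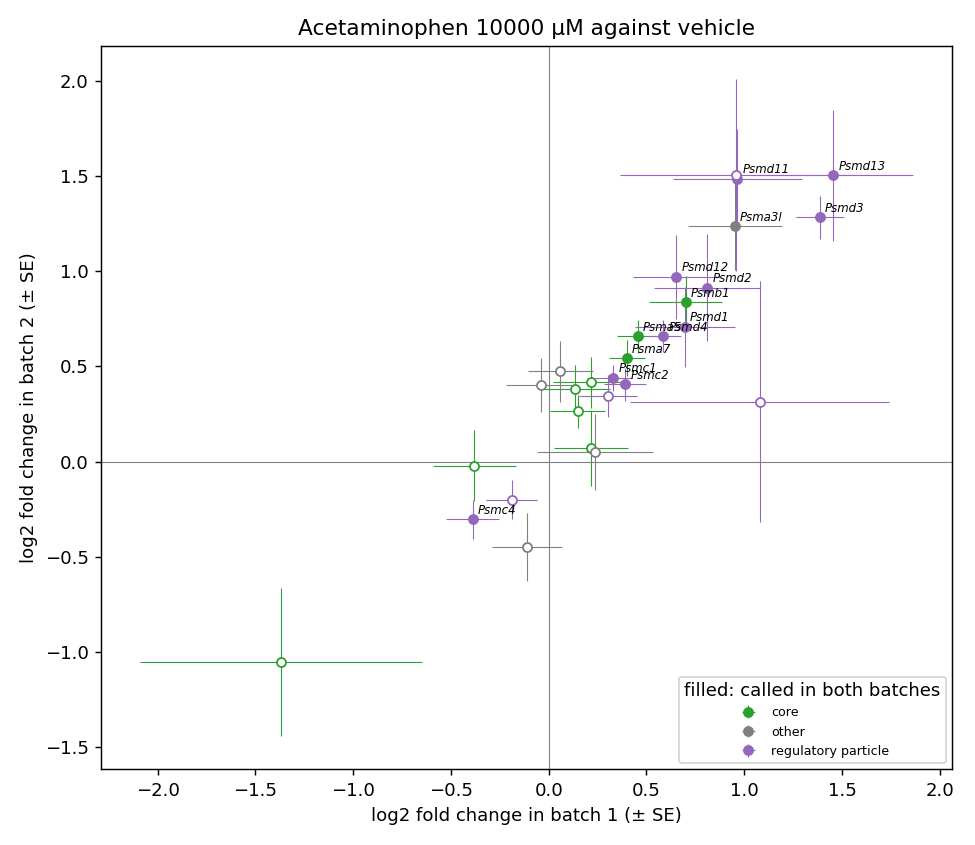
Log2 fold change ± SE of each member in 10000 µM acetaminophen in batch 1 (x axis) and batch 2 (y axis), with core genes in green, regulatory particle genes in purple, other members in grey and filled symbols for members called in both batches. Psmb10, at -3.57 and -3.77, lies outside the axes and is not drawn, and Psmd13 and Psmd3 lie farthest to the upper right.

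Genes that work with the proteasome were followed by lists of 5 to 11 probes, too short to read a share from. For comparison, the shares of all probes called higher and lower were 29.7% and 31.1% in acetaminophen, 19.6% and 19.3% in ranitidine, 20.9% and 21.4% in valproic acid, 14.0% and 15.1% in indomethacin, 20.0% and 21.4% in caffeine, and 23.0% and 26.2% in diclofenac, and these hold for each list that follows. Among the core assembly chaperones (5 tested), acetaminophen called 3 lower (Psmg1, Psmg2 and Psmg3) and 1 higher (Psmg4), while the other 5 treatments called none lower and 1 or 2 higher. Psmg1 had L2FC of -0.54 and -0.60 in acetaminophen and 0.71 and 0.71 in valproic acid. Among the activators and the inhibitor of the proteasome (6 probes), acetaminophen called 2 higher, with the activator Psme4 at 1.36 and 1.15, and 3 lower, Psme1, Psme2 and the inhibitor Psmf1. The counts higher and lower were 1 and 1 in ranitidine and valproic acid, 2 and 0 in indomethacin, 0 and 2 in caffeine and 2 and 1 in diclofenac. Among proteins that bind the proteasome and ubiquitin (11 tested), 3 were called higher in acetaminophen, 4 in ranitidine, indomethacin and caffeine, 3 in diclofenac and 1 in valproic acid, and 1 lower in acetaminophen, ranitidine and valproic acid, with Uchl5, a deubiquitinase of the regulatory particle, at 1.51 and 1.94 in acetaminophen.

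The regulators of proteasome genes (8 tested) gave 4 higher and 2 lower calls in acetaminophen, 4 and 1 in caffeine, 3 and 2 in ranitidine, 3 and 1 in diclofenac, 2 and 1 in indomethacin and 1 and 3 in valproic acid. Nfe2l1 and Ddi2 are named for their known role, after their values were seen. Nfe2l1 was called higher in caffeine, at 1.70 and 0.73, and ranitidine, at 1.13 and 0.44. Ddi2, the protease that activates its product, was called higher in caffeine, at 2.56 and 2.36, acetaminophen, at 1.43 and 1.13, and indomethacin, at 0.63 and 0.49. Nfe2l2, which encodes NRF2, was called lower in all 6 treatments, from -0.62 and -0.54 in indomethacin to -2.53 and -1.73 in ranitidine. Of 9 NRF2 targets tested, acetaminophen called 5 higher, with Nqo1 at 2.77 and 2.78 and Txnrd1 at 3.00 and 3.53, and 1 lower, while the counts were 4 and 3 in ranitidine, 2 and 4 in valproic acid, 4 and 2 in indomethacin, 1 and 5 in caffeine and 2 and 3 in diclofenac. Of 9 heat shock probes, 6 were called higher in acetaminophen, 7 in diclofenac, 5 in caffeine, indomethacin and ranitidine and 2 in valproic acid, which also called 2 lower. Of 8 probes of autophagy receptors and related genes, 7 were called higher in caffeine, with Gabarapl1 at 3.29 and 3.27, 6 in ranitidine, 5 in indomethacin, 4 in diclofenac and 2 in acetaminophen and valproic acid.

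Across all 186 wells the members were compared by correlation. The value for a member's log2(CPM + 1), centred on its batch, with the mean of the other members was above 0.3 (Pearson's r) for 21 of the 29 and highest for Psma5, at 0.813. Psmb10 was the 1 member with a negative value, -0.284, and Psmb5 and Psmc6, the 2 members with about 12 reads per well, were near 0. The mean of the members had r of 0.002 with the log2 total reads of a well and a median r of 0.171 with all tested probes. The probes outside the members most like their mean were Ahsa1 (r = 0.828), a co-chaperone of HSP90, Cacybp (0.816), Plaa (0.811), which binds ubiquitin, Ppid (0.811), Utp4 (0.81), Rnmt (0.794), Prmt5 (0.773), Sugt1 (0.77), Nol11 (0.765) and Timm10 (0.765). These values describe wells that share treatments and plates, and no p is given for them.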

How the data were processed

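Per the labels and the study's methods, the authors aligned TempO-Seq reads to the rat genome (rn6) with STAR 2.5.3a, allowing 2 mismatches, and deposited the resulting table of raw read counts per probe and well, not normalized. All 186 WT wells and 186 ST wells entered, grouped by chemical, concentration and batch as labelled, and no well had counts identical to another. Chemical names rest on the labels. Known targets were their only check, which covers few chemicals. The PPARα target Cyp4a1 had its highest mean fold changes at both concentrations of WY14643, and Hmgcs1, a gene of sterol synthesis, was called higher at both of simvastatin but also at both of WY14643, with its highest mean at 8 µM WY14643, and in 15 µM ketoconazole. Depth is given as total counts per well, 2289425 to 8975207 for WT and 558190 to 2210264 for ST.

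Probes with a mean of at least 10 counts over WT wells were fitted in each batch with edgeR 4.0.16 (R 4.3.3; TMM factors, quasi-likelihood test, all groups of the batch in the fit, Benjamini-Hochberg adjustment). Wells of a batch come from 1 animal, so p-values measure the spread between wells. A call needed an adjusted p under 0.05 in both batches with the same sign. CPM were set against all reads of a well, with a pseudocount of 1 on the log2 scale. Scripts were tested on simulated data. The alternatives were DESeq2 1.42.0, RLE factors, no filter, vehicle wells of the same plate, 1 fit of both batches, leaving out wells, and for the contrast of core and regulatory particle the CPM scale, a pseudocount of 0.1 and all members by name.

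The 6 treatments with the most members called, and medium, were described in depth, with up to 8 called members of the largest mean fold change named in each, the peptidase subunits, up to 4 genes of each pathway list and the 10 other probes most like the mean of the members. The members and lists were chosen with earlier results of these data known. The counts of 1 pathway list are not reported here.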

Additional observations from a re-analysis of the deposited data

Results flagged for a closer look

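In 4 of the 29 members the 6 vehicle wells of batch 2 held a well far from the other 5, and in 2 of 29 the 6 medium wells of batch 2 did. Chance gives such a well in about 1 of 20 groups. Psmd11 stood at 1.21 CPM in a vehicle well where the others had 2.22 to 2.67, Psmc3ip at 4.84 where the others had 6.5 to 7.22, and Psmd6 at 3.11 where the others had 10.4 to 14.3, and these 3 low values came from the same well. Psmb5 stood at 3.52 CPM in another vehicle well, where the others had 1.67 to 2.22. In medium, Psmb3 had 27.9 CPM in a well where the others had 24.1 to 25.2, and Psmd4 had 130 where the others had 183 to 199.

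The response differed between the batches for 2 pairs of member and treatment, by the interaction of batch and treatment in edgeR with Benjamini-Hochberg adjustment over all pairs of a comparison. Psmc4 in 18 µM chloramphenicol had a difference of batch 2 minus batch 1 of -0.599 ± 0.169 (SE, adjusted p = 0.048 by edgeR), with 185.9, 211.5 and 190.8 CPM against 160.9 to 178.7 in vehicle in batch 1 and 118.6, 118.1 and 88.51 against 122.3 to 163.2 in batch 2. Psmc4 thus lay above vehicle in batch 1 and below it in batch 2. Psmc3ip in 450 µM chloramphenicol had a difference of -1.5 ± 0.348 (SE, adjusted p = 0.0141 by edgeR), with L2FC of 0.35 in batch 1 and -1.15 in batch 2. The chloramphenicol wells of batch 1 had no vehicle well on their plate, so plate and batch cannot be told apart for these pairs.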

How the results depend on the processing

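RLE factors and DESeq2 kept the count of members called against vehicle within 1.5 times in all 29 comparisons and between concentrations in all 14. With no filter the count became 4 in 450 µM chloramphenicol, 1 in 15 µM ketoconazole, 4 in 100 µM sulfasalazine, 1 in 400 µM valproic acid and 7 in 8 µM WY14643. With only the vehicle wells of the same plate in batch 2 it became 5 in 300 µM indomethacin and 1 in 80 µM naproxen, 100 µM sulfasalazine and 4 µM sulfasalazine. With both batches in 1 fit, where 1 adjusted p replaces the need for a call in each batch, it became 24 in acetaminophen, 20 in ranitidine and indomethacin, 16 in valproic acid and 13 in caffeine at the higher concentrations, 17 at both concentrations of WY14643, 15 in chloramphenicol, 14 in ketoconazole, 11 in naproxen and sulfasalazine, 4 in doxorubicin, 3 in isoniazid and 2 in simvastatin at the higher concentration, 4 in 4 µM sulfasalazine and 400 µM valproic acid, and 2 in 80 µM naproxen and medium. Leaving out wells in turn gave 13 to 16 in acetaminophen, 10 to 11 in ranitidine, 6 to 11 in valproic acid, 6 to 9 in indomethacin, 5 to 7 in caffeine and 7 in diclofenac, and 0 to 3 in chloramphenicol, 2 to 6 in ketoconazole, 2 to 4 in naproxen, 0 to 1 in simvastatin, 1 to 2 in sulfasalazine, 2 to 7 in 8 µM WY14643, 0 to 3 in 400 µM valproic acid and 0 to 1 in 4 µM sulfasalazine. Between concentrations it gave 7 to 12 in valproic acid, 2 to 6 in naproxen and 0 to 1 in simvastatin. The contrast of core and regulatory particle in acetaminophen ran from 0.282 to 0.463 without single treated wells, and was 0.4 on the CPM scale and 0.173 with all members by name. In caffeine the contrast ran from -0.0819 to 0.018 without single wells, and its sign turned. Of the named members none changed sign in the alternative fits (on the CPM scale Psma7, Psmc1 and Psmc2 in acetaminophen did in batch 1), and Psmc2 in caffeine was the least firm, uncalled under 9 settings, followed by Psma5 in caffeine and Psmd9 in indomethacin under 6 each. No paired analysis was possible because the labels number no replicates. Plate and well positions were not used to pair wells, and plates entered only through the vehicle wells of the same plate in batch 2.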
